A study of Mus musculus with 6 samples.

Results

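The genes described here are 9 interferon-stimulated genes, taken by name but with earlier results of these data known: *Ifih1*, *Stat2*, *Irf9*, *Irf7*, *Ifit1*, *Ifit3*, *Isg15*, *Oasl2* and *Bst2*. They were measured in RNA-seq of gastrocnemius (GAS) muscle, in a table of 24532 genes, of which 13801 had enough counts to be tested by edgeR's filterByExpr. All 9 genes were among these. The WT group held 3 libraries (WT1, WT4 and WT6) from *Sirt6* flox/flox mice without Cre. The *Sirt6* KO group held 3 libraries (KO3, KO6 and KO7) from *Sirt6* flox/flox mice that also carried *Myl1-Cre*. All were C57BL/6 males of about 20 weeks of age, so the floxed *Sirt6* alleles, strain, sex and age were common to both groups. The *Myl1* promoter drives Cre mainly in fast myofibres, so endothelial cells, macrophages and other cells of the tissue keep *Sirt6*. A group with Cre and no floxed allele was not analysed here. The sources describe triplicates without saying which animal gave which library, so p-values measure the spread between these libraries.

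Type I interferons bind the receptor IFNAR1/IFNAR2, which activates the kinases JAK1 and TYK2. These phosphorylate STAT2, which joins IRF9 in the complex ISGF3. ISGF3 binds the interferon-stimulated response element (ISRE) in the promoters of its targets, many of which bind or modify viral RNA and proteins. SIRT6 is a nuclear deacetylase that has been linked to the silencing of LINE-1 retroelements, whose nucleic acids can set off interferon signalling. Here the transcripts of this pathway were compared between GAS muscle labelled WT and GAS muscle labelled as lacking SIRT6.

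Total counts on genes lay between 44845763 and 63016899 per library, and 1 count was worth 0.0165 to 0.0212 normalised CPM (counts scaled to library size after TMM). No pair of libraries held identical counts. The targeted gene, *Sirt6*, was at 2.77, 2.23 and 2.88 CPM in WT1, WT4 and WT6 and at 7.81, 7.44 and 6.68 CPM in KO3, KO6 and KO7. It was thus higher in all libraries labelled *Sirt6* KO, by 1.48 on the log2 scale (SE 0.17, adjusted p = 0.0113, edgeR's quasi-likelihood test), a call that was lost without KO3 and without KO7. Counts per gene do not separate the deleted exons, and every direction given below follows the labels. The libraries also split across the groups. *Hbb-bt*, a beta-globin of red cells, had 2766, 2457 and 1908 counts in WT1, WT4 and KO6 and 0 in WT6, KO3 and KO7, and the slow myosin *Myh7* was at 720 CPM or more in the first set and at 163 CPM or less in the second.

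Several of the 9 genes carry the ISRE in front of their start site, and these sequences are shown because they are the element through which the genes are known to respond. The motif searched was TTTC, any 2 bases and TTTC again, on either strand and in windows from 250 bases before to 50 bases after each RefSeq start site (GRCm38.p6). Of the 9 genes, 6 held at least 1 match (66.7%), against 1079 of 27025 genes with a window (3.99%). The motif stands in capitals below, with up to 10 bases on each side, read on the strand of the gene. In *Isg15* and *Bst2* the window held overlapping matches, of which 1 is shown.

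*Ifit1*, chr19:34640775-34640804, + strand: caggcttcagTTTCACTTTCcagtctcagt
*Ifit1*, chr19:34640794-34640823, + strand: ccagtctcagTTTCAGTTTCtcactgctga
*Ifit3*, chr19:34583363-34583392, + strand: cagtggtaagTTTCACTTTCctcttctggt
*Ifit3*, chr19:34583397-34583426, + strand: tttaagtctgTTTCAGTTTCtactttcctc
*Isg15*, chr4:156200871-156200900, − strand: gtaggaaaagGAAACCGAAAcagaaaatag
*Bst2*, chr8:71537577-71537606, − strand: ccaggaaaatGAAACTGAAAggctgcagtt
*Stat2*, chr10:128270266-128270295, + strand: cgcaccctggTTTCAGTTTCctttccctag
*Ifih1*, chr2:62646206-62646233, − strand: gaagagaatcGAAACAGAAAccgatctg

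In *Ifit1* the matches lay at bases −104 to −95 and −85 to −76 from the start site, and in *Ifit3* at −156 to −147 and −122 to −113. *Ifih1* was the exception in position, with its match after the start site at bases 33 to 42. The windows of *Irf7*, *Irf9* and *Oasl2* did not hold these letters. Among further type I interferon targets, 26 of 51 genes with a window had a match (51%), and among interferon gamma and antigen presentation genes 12 of 25 (48%). The GAS element, a promoter motif of the interferon gamma response, searched as TTCNNNGAA, was found in 1 of the 9 windows (*Bst2*, overlapping its ISRE), against 9.55% of all genes. A match is a run of letters in a window and was not tested as a binding site.

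None of the 9 interferon-stimulated genes passed the test. The adjusted p-values lay between 0.1235 (*Oasl2*) and 0.821 (*Bst2*) in edgeR's quasi-likelihood test, adjusted by Benjamini-Hochberg over all genes. Below 0.05 were 0 of 9, where 16.2% of all genes tested were (7.85% higher and 8.39% lower in the KO-labelled group). At an unadjusted p under 0.05 the count was 1 of 9 (*Oasl2*), against 35.3% of all genes, and above 2-fold with that p it was 0 of 9, against 7.83%. DESeq2's Wald test also called 0 of 9. Of the 9 log2 fold changes, 5 were positive and 4 negative, from −0.40 (*Irf9*) to 0.77 (*Oasl2*), with a median of 0.14 beside a median of −0.02 over all genes tested. Values for each gene follow by role, as normalised CPM in each library.

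**Figure D1:**
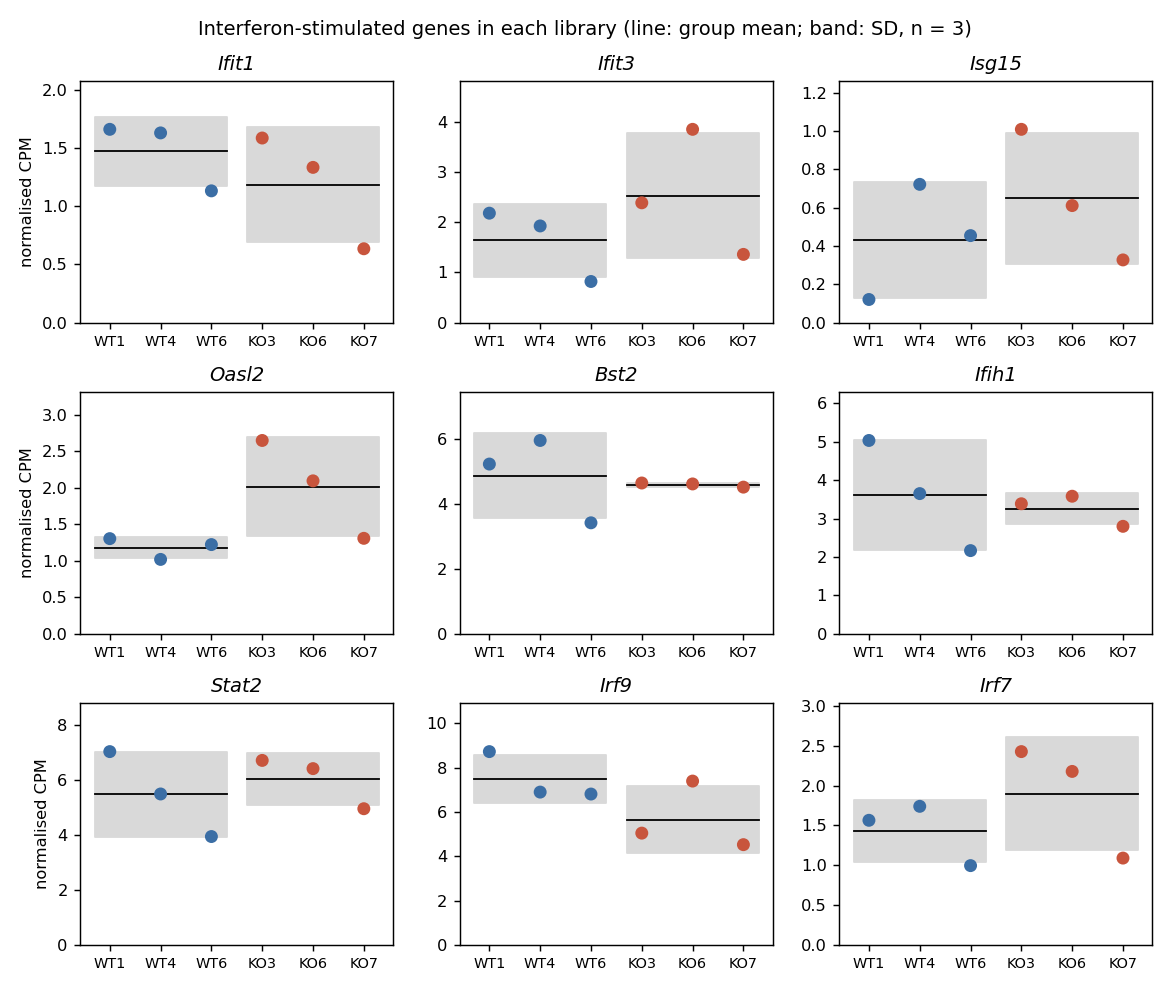
Normalised CPM (vertical axes, each from 0) of the 9 interferon-stimulated genes in the WT libraries (blue) and the libraries labelled *Sirt6* KO (red), with the group mean as a line and the SD (n = 3) as a band. The groups overlap in every gene except *Oasl2*, whose KO7 value of 1.31 lies next to the WT1 value of 1.30.

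*Ifih1* (NCBI gene 71586, chr2:62595618-62646255) encodes MDA5, a cytosolic sensor of long double-stranded RNA. It was at 5.03, 3.65 and 2.16 CPM in WT1, WT4 and WT6 and at 3.38, 3.58 and 2.80 CPM in KO3, KO6 and KO7. All KO-labelled values lay inside the WT range, which spanned 2.33-fold against 1.28-fold. The fitted difference was −0.15 on the log2 scale (SE 0.31, 95% interval −0.87 to 0.57, adjusted p = 0.759, edgeR), and it became 0.17 without WT1.

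*Stat2* (NCBI gene 20847, chr10:128270498-128292853), the STAT protein particular to the response to type I and type III interferons, had 7.04, 5.49 and 3.94 CPM in the WT libraries. It had 6.72, 6.42 and 4.96 CPM in KO3, KO6 and KO7, again within the WT range. The log2 fold change of 0.14 (SE 0.24, 95% interval −0.43 to 0.70, adjusted p = 0.720, edgeR) became −0.052 without WT6. *Irf9* (NCBI gene 16391, chr14:55603985-55610030), the DNA-binding subunit of ISGF3, was at 8.72, 6.89 and 6.81 CPM in WT1, WT4 and WT6 and at 5.04, 7.39 and 4.52 CPM in KO3, KO6 and KO7. KO6 stood within the WT range and KO3 and KO7 below it. Its log2 fold change was −0.40 (SE 0.22, 95% interval −0.92 to 0.12, adjusted p = 0.237, edgeR), and *Irf9* kept this sign in each of the fits with 1 library left out, between −0.63 and −0.26.

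*Irf7* (NCBI gene 54123, chr7:141263183-141266499) encodes the factor that is induced by ISGF3 and then amplifies interferon transcription. It was at 1.56, 1.74 and 0.995 CPM in the WT group and at 2.43, 2.18 and 1.09 CPM in KO3, KO6 and KO7. KO3 and KO6 were above every WT library, while KO7 fell between WT6 and WT1. The log2 fold change was 0.41 (SE 0.37, 95% interval −0.45 to 1.27, adjusted p = 0.458, edgeR).

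*Ifit1* (NCBI gene 15957, chr19:34640889-34650009) binds viral RNA that lacks host cap methylation. Its values were 1.66, 1.63 and 1.13 CPM in WT1, WT4 and WT6 and 1.59, 1.34 and 0.636 CPM in KO3, KO6 and KO7. KO7, with 35 counts, was the lowest library, and the log2 fold change of −0.31 (SE 0.38, 95% interval −1.19 to 0.57, adjusted p = 0.590, edgeR) was −0.01 without it. Its paralog *Ifit1bl1*, whose RefSeq span covers *Ifit1*, had 13 counts in all 6 libraries together.

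*Ifit3* (NCBI gene 15959, chr19:34583119-34588982), a partner of IFIT1 in antiviral complexes, varied more. It was at 2.19, 1.93 and 0.820 CPM in WT1, WT4 and WT6 and at 2.39, 3.86 and 1.36 CPM in KO3, KO6 and KO7. KO6 was the highest library and WT6 the lowest, and KO7 lay below WT1 and WT4. This gave a log2 fold change of 0.63 (SE 0.48, 95% interval −0.48 to 1.74, adjusted p = 0.375, edgeR). With a covariate for the *Hbb-bt* split, added after the data were seen, *Ifit3* was called (1.04, adjusted p = 0.049, edgeR), at the edge of the threshold. It was the one member called under any alternative. The same fit called 10 genes of the interferon and retroelement lists. The share of all genes called in that fit is not given here.

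The value of *Ifit3* is uncertain because of its neighbour *Ifit3b* (chr19:34607530-34613403). Their transcripts were identical at 1663 of 1697 aligned bases (98%), and the *Ifit3b* window held the same 30 bases around both ISREs, at chr19:34607759-34607788 and chr19:34607793-34607822. *Ifit3b* had 143, 103 and 56 counts in the WT libraries and 74, 190 and 84 counts in KO3, KO6 and KO7. Summed, the pair was at 5.05, 4.12 and 1.80 CPM in WT1, WT4 and WT6 and at 3.66, 6.995 and 2.89 CPM in KO3, KO6 and KO7, and the groups overlapped. The fitted difference of the sum was 0.31 on the log2 scale (adjusted p = 0.66, edgeR), below that of *Ifit3* alone.

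*Isg15* (NCBI gene 100038882, chr4:156199424-156200818) encodes the ubiquitin-like modifier that is joined to proteins during the interferon response. It was the least abundant member in counts, at 0.120, 0.721 and 0.454 CPM in WT1, WT4 and WT6 and at 1.01, 0.610 and 0.327 CPM in KO3, KO6 and KO7. WT1 held 6 counts and KO3 59 counts, and the other libraries overlapped between the groups. Its log2 fold change of 0.59 (SE 0.67, 95% interval −0.96 to 2.14, adjusted p = 0.560, edgeR) had the widest interval of the 9 genes and was 1.16 without WT4 and 0.13 without KO3.

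*Oasl2* (NCBI gene 23962, chr5:114896926-114912245), an oligoadenylate synthetase-like protein, was the member with the largest difference. It was at 1.30, 1.02 and 1.22 CPM in WT1, WT4 and WT6 and at 2.65, 2.095 and 1.31 CPM in KO3, KO6 and KO7. The KO-labelled libraries were above the WT libraries in 3 of 3, but KO7 (72 counts) and WT1 (65 counts) were nearly level in CPM. The log2 fold change was 0.77 (SE 0.31, 95% interval 0.05 to 1.49), with an unadjusted p of 0.0396 and an adjusted p of 0.1235 in edgeR's quasi-likelihood test. The exact two-sided permutation test gave p = 0.1, the smallest that 3 libraries against 3 allow. *Oasl2* was the 1 of 9 members whose groups did not overlap, against 40.0% of all genes tested (20.3% higher and 19.6% lower in the KO-labelled group). Its estimate ranged from 0.53 to 1.01 with 1 library left out.

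*Bst2* (NCBI gene 69550, chr8:71534255-71537472) encodes tetherin, which holds budding virus at the cell surface. It was at 5.23, 5.96 and 3.42 CPM in the WT group and at 4.65, 4.62 and 4.52 CPM in KO3, KO6 and KO7. The KO-labelled libraries were within 1.03-fold of each other and inside the WT range of 1.74-fold. *Bst2* had a log2 fold change of −0.08 (SE 0.22, 95% interval −0.61 to 0.44, adjusted p = 0.821, edgeR), and it was 0.089 without WT4.

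**Figure D2:**
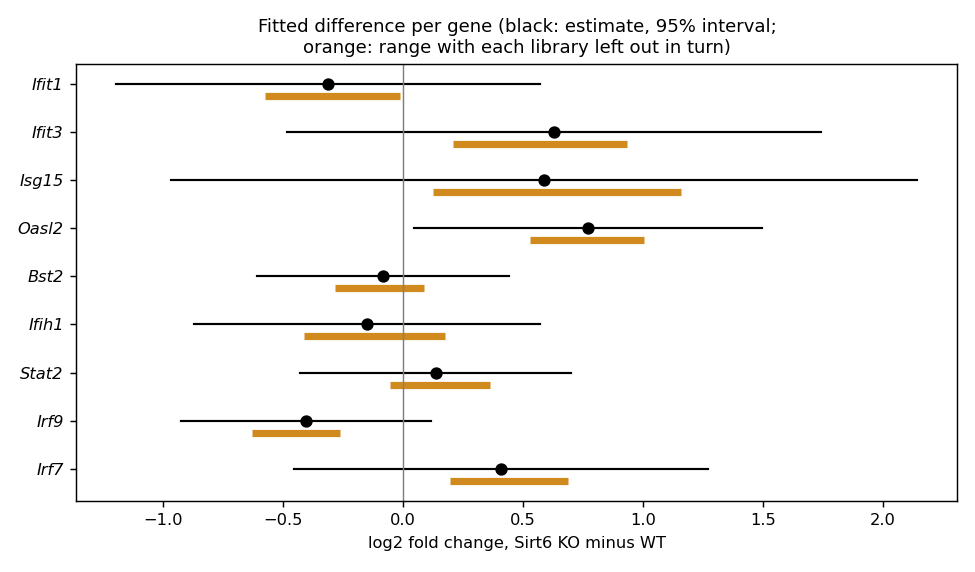
Fitted log2 fold change (horizontal axis, libraries labelled *Sirt6* KO minus WT) of each gene as a black point with its 95% interval, and in orange the range of the estimates with each library left out in turn. Intervals of 8 of 9 genes include 0, and the orange ranges of *Stat2*, *Bst2* and *Ifih1* cross 0.

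The intervals show what sizes of difference these libraries leave possible. A 2-fold higher level in the KO-labelled group lay inside the interval of 4 genes (*Ifit3*, *Irf7*, *Isg15* and *Oasl2*), and a 2-fold lower level inside that of *Ifit1*. For *Irf9* the interval, as a ratio of KO-labelled to WT, ran from 0.528 to 1.08, and for *Bst2* from 0.657 to 1.36. A p above the threshold does not show that the levels were equal.

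Levels between genes were compared in the deposited TPM, which are per length. *Bst2* was highest, at 13.1 ± 3.27 TPM (SD over 6 libraries) with a range of 8.62 to 17.5, which did not overlap that of *Irf9* at 5.61 ± 1.72. Then came *Stat2* at 2.79 ± 0.738, *Ifit3* at 2.21 ± 1.07 and *Irf7* at 1.93 ± 0.705. *Isg15* at 1.46 ± 0.890, *Ifih1* at 1.34 ± 0.493, *Ifit1* at 1.07 ± 0.386 and *Oasl2* at 1.06 ± 0.412 closed the order. From *Irf9* downwards every neighbour overlapped the next in range. The members were weakly expressed as a group: *Bst2* stood at the 59.9th percentile of the genes tested and *Oasl2* at the 18.3rd. Across the 6 libraries, the highest CPM was 8.38 times the lowest for *Isg15* and 4.71 times for *Ifit3*, but 1.74 times for *Bst2*.

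What the 9 genes shared was their pattern between libraries of the same group. KO7 was the lowest of the KO-labelled libraries in 9 of 9 genes, against 28.6% of all genes tested. WT6 was the lowest of the WT libraries in 7 of 9, against 37.4% of all genes, the exceptions being *Isg15*, lowest in WT1, and *Oasl2*, lowest in WT4. Some of these lowest values were near ties. In *Bst2* the KO-labelled libraries were within 1.03-fold, and in *Irf9* WT6 was at 6.81 CPM and WT4 at 6.89 CPM. On a log2 scale centred on each gene's mean, the 9 genes averaged 0.03, 0.13 and −0.42 in WT1, WT4 and WT6 and 0.34, 0.32 and −0.40 in KO3, KO6 and KO7. The averages of WT6 and KO7 thus lay below those of the other libraries in both groups. The 9 genes share these libraries and are not independent replicates.

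**Figure D3:**
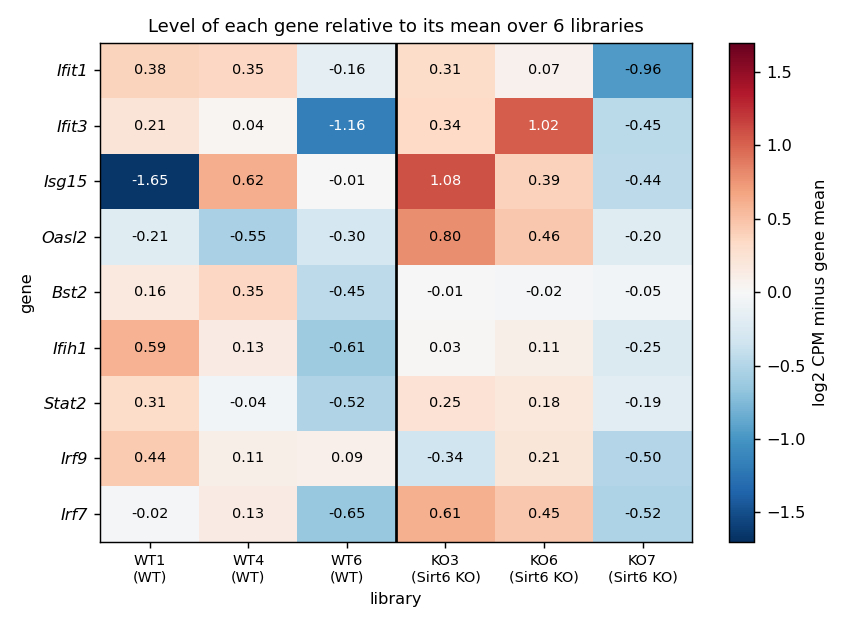
Level of each interferon-stimulated gene (rows) in each library (columns) as log2 CPM minus the gene's mean over 6 libraries, red above and blue below the mean, with the value in each cell. The WT6 and KO7 columns are mostly blue, with −1.16 for *Ifit3* in WT6 and −0.96 for *Ifit1* in KO7.

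The other type I interferon targets followed the same libraries. KO7 was the lowest KO-labelled library in 43 of 56 (76.8%), and WT6 the lowest WT library in 37 of 56 (66.1%). Among 21 nucleic acid sensors and their adaptors the counts were 10 (47.6%) and 12 (57.1%). Interferon gamma and antigen presentation genes differed from this in KO7, which was lowest in 9 of 32 (28.1%), while WT6 was lowest in 30 of 32 (93.8%).

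**Figure D4:**
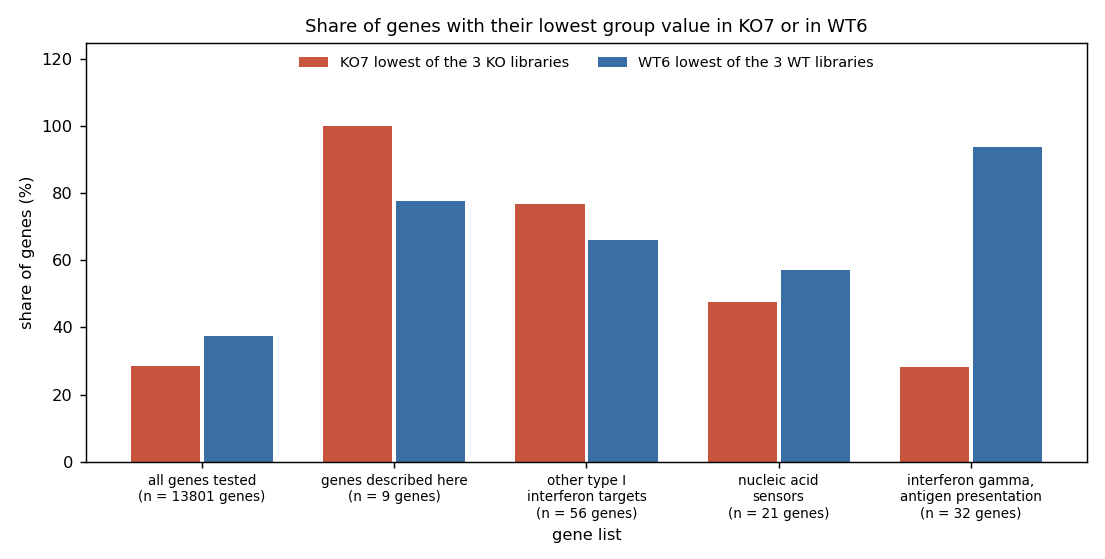
Share of genes (vertical axis, %) in each list whose lowest KO-labelled value was in KO7 (red) and whose lowest WT value was in WT6 (blue). KO7 was lowest for 28.6% of all genes, 76.8% of other type I interferon targets and all 9 genes described here.

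Several measures of the libraries stood beside this pattern. KO7 (57475696 counts) and KO3 (58356863 counts) were similar in depth, and WT6 was the deepest WT library. The 8 endothelial markers summed to 355, 407 and 198 CPM in WT1, WT4 and WT6 and to 229, 247 and 239 CPM in KO3, KO6 and KO7, so WT6 was lowest among WT (in 8 of 8 markers) and KO7 lay between KO3 and KO6. The 12 macrophage markers summed to 129, 51.0 and 57.2 CPM in the WT libraries and to 69.4, 61.2 and 68.3 CPM in KO3, KO6 and KO7. KO7 was the lowest KO-labelled library in 2 of the 12.

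Red cell markers, as a sum, were lowest in the same libraries as the members' averages. By marker, WT6 was the lowest WT library in 5 of 5 and KO7 the lowest KO-labelled library in 3 of 5. The 5 markers summed to 297, 291 and 46.6 CPM in WT1, WT4 and WT6 and to 109.8, 181 and 80.2 CPM in KO3, KO6 and KO7, none of them at 0 in all libraries, and WT6 and KO7 were the lowest of their groups. The 5 adipocyte markers summed to 40.5, 46.4 and 4.05 CPM and to 13.3, 110.9 and 51.3 CPM, lowest in WT6 and KO3. The part of these cells in the members' pattern was not tested.

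Markers of dendritic cells, lymphocytes and neutrophils were low. The 6 dendritic cell markers summed to 0.700 to 1.06 CPM in the WT group and to 0.718 to 0.940 CPM in the KO-labelled group, with 1 of 6 at 0 in all libraries. The 10 lymphocyte markers summed to 0.175 to 0.622 and 0.132 to 0.363 CPM, with 4 of 10 at 0, and the 6 neutrophil markers to 0.244 to 0.481 and 0.273 to 0.926 CPM, with 1 of 6 at 0. The 10 myofibre markers, which define the labelled tissue, summed to 147700 to 217300 and 196600 to 221500 CPM. Of these lists, 2 dendritic, 1 lymphocyte, 1 neutrophil and 10 myofibre markers had enough counts to be tested, and 0 were called. None of the tested endothelial, macrophage, red cell and adipocyte markers was called either. Of all genes tested, 16.2% were called.

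The 7 fibroblast markers summed to 1712, 1269 and 1072 CPM in WT1, WT4 and WT6 and to 1259, 1483 and 1505 CPM in KO3, KO6 and KO7. Of the 7, 1 was called (14.3%, beside 16.2% of all genes tested). This was *Ly6a*, which fell by 0.83 on the log2 scale (adjusted p = 0.0347, edgeR). The 5 Schwann cell markers summed to 14.4, 20.4 and 9.16 CPM in WT1, WT4 and WT6. In KO3, KO6 and KO7 they summed to 7.30, 12.6 and 15.3 CPM, and 1 of 5 was called, lower (20%). In bulk tissue, fewer cells of a type and less RNA per cell cannot be told apart, and the part of cell composition in the members' pattern was not tested.

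Within the *Hbb-bt* split the groups were set side by side, WT1 and WT4 with KO6, and WT6 with KO3 and KO7. *Ifit3*, *Irf7* and *Oasl2* were higher in every KO-labelled library than in every WT library of both sets. Their differences on the log2 CPM scale were 0.91 and 1.14 for *Ifit3*, 0.40 and 0.71 for *Irf7*, and 0.86 and 0.61 for *Oasl2*. The share of all genes tested with this order in both sets is not given here. Each set held only 1 library of WT or of the KO-labelled group. The order alone therefore does not show a difference between the groups. *Bst2* (−0.27 and 0.42) and *Ifih1* (−0.26 and 0.51) had opposite signs in the 2 sets. The other 4 genes kept 1 sign but overlapped in at least 1 set, as *Irf9* did with −0.07 and −0.51. The fit with a covariate for the split, added after the data were seen, gave 1.04 for *Ifit3* (adjusted p = 0.049), 0.60 for *Irf7* (adjusted p = 0.274) and 0.77 for *Oasl2* (adjusted p = 0.146, all edgeR). In that fit the adjusted p-values of the other 6 members lay between 0.276 (*Irf9*) and 0.845 (*Bst2*).

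Upstream of the 9 genes, transcripts of the interferons themselves were at or near 0. Of 19 interferon genes, 15 had no count in any library, *Ifnb1* among them. *Ifna2*, *Ifna13* and *Ifng* had 2 counts each in KO7 and *Ifnab* had 2 counts in WT4, below the limit of 3 counts that a count of 0 allows (0.0495 to 0.0636 CPM, counting error only). A difference between the groups was not detectable at this depth.

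Of 13 tested receptor and signalling genes, 1 was called (7.69%, beside 16.2% of all genes tested). *Jak2*, a kinase of the interferon gamma and many cytokine receptors, was at 114, 117 and 156 CPM in WT1, WT4 and WT6 and at 39.6, 45.7 and 43.4 CPM in KO3, KO6 and KO7. Every KO-labelled library was below every WT library, and *Jak2* fell by 1.59 on the log2 scale (SE 0.15, adjusted p = 0.0110, edgeR). The other 12 were not called, including *Jak1* (0.09) and *Ifngr2* (0.03), and the list's median was −0.00085.

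Of the feedback inhibitors of JAK signalling, *Socs3* and *Socs1* each had a single high library, WT1. *Socs3* was at 14.997, 3.27 and 1.83 CPM in the WT group and at 0.837, 1.77 and 0.744 CPM in KO3, KO6 and KO7 (log2 fold change −2.58, adjusted p = 0.0667, edgeR). It was −1.18 without WT1 (adjusted p = 0.179), and *Socs3* was called without WT6 (adjusted p = 0.0204) and by DESeq2 (adjusted p = 0.00143). *Socs1* was at 7.70 CPM in WT1 and at 0.0660 to 0.393 CPM in the other 5 libraries, and its log2 fold change of −3.48 (adjusted p = 0.154, edgeR) became 0.59 without WT1. *Usp18*, which removes ISG15 from proteins and was chosen after its values were seen as the enzyme acting on a member, was at 1.40, 0.870 and 1.27 CPM in WT and at 2.67, 2.14 and 1.53 CPM in KO3, KO6 and KO7 (0.83, SE 0.31, adjusted p = 0.1002, edgeR).

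Of 21 sensors and adaptors, 1 was called (4.76%, beside 16.2% of all genes tested). *Tlr8*, an endosomal receptor, was at 1.98, 0.891 and 1.85 CPM in the WT group and at 0.513, 0.429 and 0.690 CPM in KO3, KO6 and KO7, and fell by 1.53 on the log2 scale (adjusted p = 0.0397, edgeR). *Mb21d1*, the DNA sensor cGAS, was at 0.244 to 0.615 CPM in WT and 0.0854 to 0.280 CPM in the KO-labelled group (−1.21, adjusted p = 0.185, edgeR). The adaptor *Mavs* (−0.22) and the helicase *Dhx9* (−0.08) were not called. None of the 6 other IRF genes was called, against 16.2% of all genes tested. At an unadjusted p under 0.05 the count was also 0, against 35.3% of all genes. Their log2 fold changes included 0.11 for *Irf1*, −0.14 for *Irf2*, −0.87 for *Irf4* and −0.54 for *Irf5*.

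Among 56 other type I interferon targets, 2 rose and 1 fell (5.36%, beside 16.2% of all genes tested), with a median log2 fold change of −0.08. *Ifi27*, a mitochondrial and nuclear envelope protein, was at 18.8, 18.1 and 12.5 CPM in WT1, WT4 and WT6 and at 36.3, 35.3 and 30.1 CPM in KO3, KO6 and KO7 (1.04, SE 0.18, adjusted p = 0.0161, edgeR). *Uba7*, the activating enzyme for ISG15, rose from 1.66, 2.59 and 1.99 CPM to 4.17, 3.45 and 3.76 CPM (0.87, SE 0.22, adjusted p = 0.0408, edgeR). The groups did not overlap in either gene.

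*Samd9l*, a restriction factor, went the other way. It was at 9.38, 8.63 and 5.41 CPM in the WT group and at 4.29, 4.44 and 4.72 CPM in KO3, KO6 and KO7, and fell by 0.80 on the log2 scale with an adjusted p of 0.049975 in edgeR, at the edge of the threshold. *Oas2*, a relative of *Oasl2*, was at 4.61, 2.91 and 2.303 CPM in the WT group and at 1.52, 2.03 and 1.198 CPM in KO3, KO6 and KO7, a log2 fold change of −1.04 (adjusted p = 0.0683, edgeR) where that of *Oasl2* was 0.77. *Oas2* was called without WT6 (adjusted p = 0.0277) and by DESeq2 (adjusted p = 0.0235). *Oas1c* (1.85, at most 0.396 CPM in any library), *Ifitm2* (−0.17) and *Ifitm3* (0.35) were not called, although *Ifitm2* was without WT6 (−0.39, adjusted p = 0.0361, edgeR).

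Of 32 interferon gamma and antigen presentation genes, 3 rose and 0 fell (9.38%), with a median log2 fold change of 0.13. Of all genes tested, 16.2% were called and 7.85% were called higher. The largest difference among the called genes of all lists was in *Iigp1*, an immunity-related GTPase, at 8.501, 10.2 and 4.87 CPM in WT1, WT4 and WT6 and at 53.0, 38.8 and 70.1 CPM in KO3, KO6 and KO7. Every KO-labelled library was above every WT library, with a log2 fold change of 2.78 (SE 0.32, adjusted p = 0.0111, edgeR). Unlike the 9 genes above, *Iigp1* had its highest value in KO7. The class I molecule *H2-T23* was at 4.19, 4.50 and 3.05 CPM in WT and at 8.41, 9.17 and 6.41 CPM in the KO-labelled libraries (1.03, adjusted p = 0.0239, edgeR). The class II chain *H2-Eb1* was at 3.77, 3.33 and 2.27 CPM in WT and at 12.7, 6.17 and 5.14 CPM in KO3, KO6 and KO7 (1.36, adjusted p = 0.0482, edgeR). *B2m*, the light chain of class I molecules, was not called (−0.31, adjusted p = 0.214, edgeR), nor were *H2-D1* (−0.10) and *Gbp8* (1.82). *B2m* was called without WT6 (−0.46, adjusted p = 0.0123, edgeR). *Gbp8* had 28, 0 and 0 counts in WT1, WT4 and WT6 and 29, 47 and 39 counts in KO3, KO6 and KO7. Without WT1, which leaves a WT group at 0, it was called (adjusted p = 0.0472, edgeR), with a fitted value of 8.21 that depends on the prior count and is no bound.

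**Figure D5:**
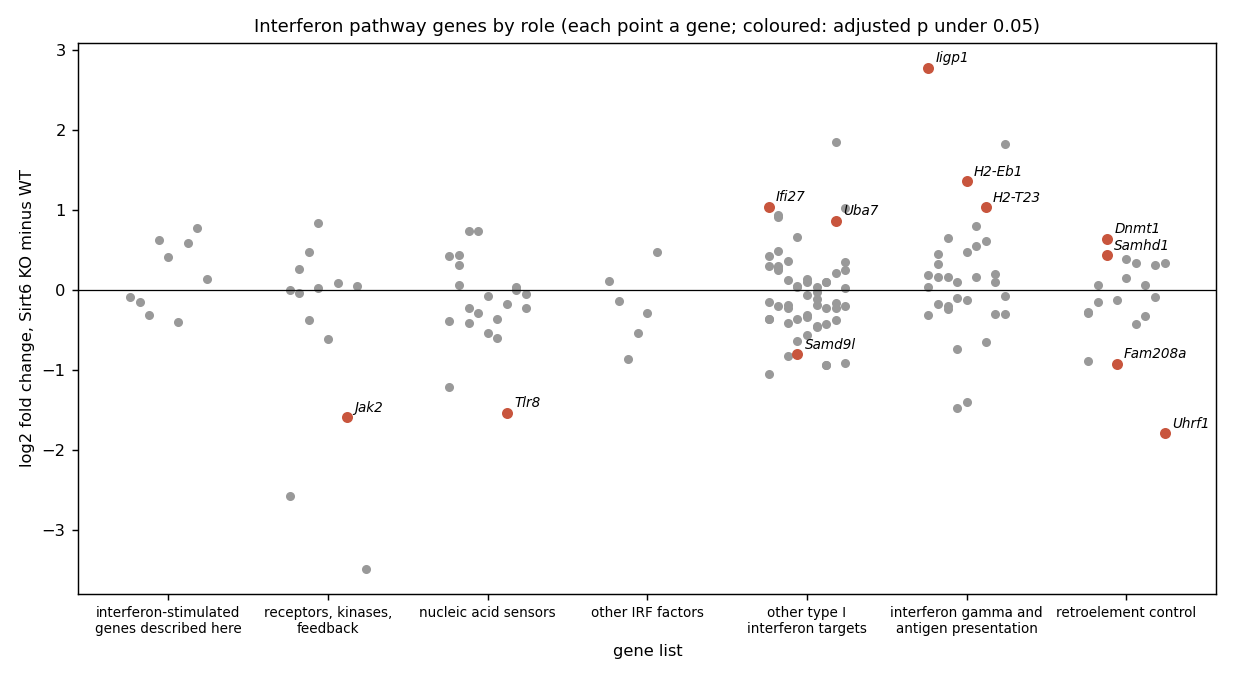
Fitted log2 fold change (vertical axis, libraries labelled *Sirt6* KO minus WT) of every tested gene of the interferon lists by role, each point a gene, with genes at an adjusted p under 0.05 in red and named. No point of the 9 genes described here is red, and *Iigp1* (2.78) and *Jak2* (−1.59) carry the smallest adjusted p-values of the interferon lists.

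Over all these lists and the retroelement list, 12 of 147 tested genes were called (8.16%, beside 16.2% of all genes tested), 7 higher and 5 lower. These calls, like those over all genes, were sensitive to single libraries. Without KO3 or without KO7 none of the 12 was called and the lists held 0 called genes. Over all genes, the fit without KO3 called 6 higher and 2 lower, of 14084 tested. Without WT6 the lists held 31 called genes of 149 tested. Over all genes, the fit without WT6 called 2363 higher and 2219 lower, of 14115 tested. The lists held 4 called genes of 148 tested without WT1, 2 of 150 without WT4, and 4 without KO6. Of all genes, 181 were called higher and 259 lower without WT1 (13990 tested). Without WT4 these counts were 96 and 153 (14019 tested). With the trend over GC content removed, 4 genes were called (*Jak2*, *Iigp1*, *Ifi27* and *Dnmt1*), each of them among the 12. *Jak2* and *Iigp1* were called in 4 of 6 fits with 1 library left out, and *Ifi27* in 3. Of the 9 members, 0 were called in each of these 6 fits. Few of all genes were called without KO3, WT1 or WT4, so 0 of 9 there does not show a stable result.

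The genes most like the 9 in pattern were found by the root mean square difference between their centred log2 CPM and the mean of the 9, over 6 libraries. They were *Trmt13* (0.0641), *Lix1l* (0.0992), *Ldb2* (0.115), *Prepl* (0.117) and *Pacs1* (0.121). None is an interferon target on the lists. By the same measure the members lay between 0.163 (*Irf7*) and 0.794 (*Isg15*) from the mean they entered. The 5 genes were closer to it than any member, but they were picked as the closest of all tested genes outside the 9. The comparison therefore does not show how common the pattern was. *Trmt13*, for example, was at 1.80, 2.06 and 1.29 CPM in WT1, WT4 and WT6 and at 2.22, 2.03 and 1.36 CPM in KO3, KO6 and KO7, which gives the same order of low WT6 and KO7.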

How the data were processed

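The 6 libraries of GAS muscle RNA (paired-end, 100 bp) were grouped by the sample labels. The submitters' processing notes name bcl2fastq 2.20.0, FastQC 0.11.7, HISAT2 2.1.0, Bowtie2 2.3.4.1, StringTie 2.1.3b and mm10, whereas the study's reporting summary names STAR. The methods and the labels name different TruSeq kits, and the methods and reporting summary different *Sirt6* flox lines. Whether counting used the strand is not given in the sources used here, so reads of overlapping or antisense genes cannot be told apart: *Gm46878* overlaps *Isg15*, *Gm39839* overlaps *Ifih1* and *Apof* overlaps *Stat2*. The authors deposited whole read counts per gene without normalization, and these were tested. The TPM values the authors deposited, scaled within each library, were used to compare levels between genes. The FPKM values the authors deposited were used in alternatives only.

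The test was edgeR's quasi-likelihood test (edgeR 4.0.16, R 4.3.3) after filterByExpr and TMM. Group was the only term, and p-values were adjusted by Benjamini-Hochberg over all genes with a threshold of 0.05. The common biological coefficient of variation was 24.1%. Library totals of 44845763 to 63016899 set the precision, and floors of 3 counts cover counting error only. The scripts were tested on simulated data. The 9 genes and the pathway and marker lists were chosen with earlier results of these data known. Every member is named. From the pathway lists, each called gene is named and otherwise the 2 most abundant and the 2 with the largest difference in each list, also the 5 genes most alike in pattern, *Sirt6*, and the copies *Ifit3b* and *Ifit1bl1*. *Usp18*, *Myh7* and *Ly6a* were named after their values were seen. Values of 2 genes of the lists are not reported here. Alternatives were DESeq2 1.42.0, its size factors, other low-count filters, limma 3.58.1 on quantile-normalized log2(FPKM + 1) or log2(FPKM + 0.1), a replicate block, removal of the GC trend (lowess span 0.3), each library left out, and, added after seeing the data, a covariate for the *Hbb-bt* split and the sum of *Ifit3* and *Ifit3b*. Coordinates and promoter sequences are from RefSeq on GRCm38.p6, the assembly of mm10, and transcripts from GENCODE. Promoter windows were matched by symbol for all 9 members. All columns of per-sample values were mapped to a sample.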

Additional observations from a re-analysis of the deposited data

How the results depend on the processing

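Of 138 values of the 9 members under the alternatives, 130 kept their sign and their side of the threshold, 1 passed it and 7 had the other sign, in 3 members. The *Hbb-bt* covariate, chosen after the data were seen, called 1 member (*Ifit3*, 1.04, adjusted p = 0.049, edgeR) and 10 pathway genes. It gave 0.069 for *Bst2* and 0.11 for *Ifih1*. Every other alternative called 0 members. Summing *Ifit3* with *Ifit3b* gave 0.31 (adjusted p = 0.66, edgeR). Removing the GC trend gave 0.080 for *Ifih1*, and with the replicate block as well 0.15. The log2 fold change across genes followed GC content (Spearman rho 0.339 over 13270 genes, a description), and members lay between 42.8% and 55.4% GC beside a median of 49.8%. Limma's FPKM filter dropped *Ifit1*, *Oasl2* and *Ifih1*. With 1 library left out, the member median lay between −0.052 and 0.26, *Ifit1* between −0.57 and −0.01, *Ifit3* between 0.21 and 0.93, *Irf7* between 0.20 and 0.69, *Irf9* between −0.63 and −0.26, *Stat2* between −0.052 and 0.36, *Isg15* between 0.13 and 1.16, *Oasl2* between 0.53 and 1.01 (adjusted p 0.108 to 0.345, edgeR), *Bst2* between −0.28 and 0.089 and *Ifih1* between −0.41 and 0.17. The arm with 1 library fewer was assumed to vary like the other. Counts over all genes, 1084 higher and 1158 lower, became 1674 and 1746 with DESeq2 and 455 and 479 without the GC trend. They were 287 and 372 with block and GC removal together. They ranged from 6 to 2363 and from 2 to 2219 with 1 library left out, lowest without KO3 (8 and 5 without KO7) and highest without WT6. The 12 called pathway genes became 22 with DESeq2, 7 without a filter on low counts, 4 without the GC trend, 5 with block and GC removal, and 0 to 31 with 1 library left out; the cause was not tested. Signs also changed for *Ifngr2* (−0.0076), *Dhx9* (0.092), *Irf1* (−0.022), *Rnaseh2c* (−0.17) and *Pacs1* (−0.039) without the GC trend, for *Dhx9* (0.093), *Rnaseh2c* (−0.18) and *Pacs1* (−0.021) with the block as well, and for *Ifngr2* (−0.042) and *Ifitm2* (0.026) under the *Hbb-bt* covariate. Leaving out 1 library changed the sign of *Jak1* (−0.053 to 0.24), *Ifngr2* (−0.039 to 0.17), *Socs1* (−4.05 to 0.59), *Irf1* (−0.11 to 0.31), *Ifitm2* (−0.39 to 0.038), *H2-D1* (−0.27 to 0.015), *Rnaseh2c* (−0.032 to 0.18), *Trmt13* (−0.041 to 0.31), *Ldb2* (−0.037 to 0.35) and *Pacs1* (−0.030 to 0.30).

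Deviations from the group means correlated at −0.11, 0.26 and 0.16 between same-numbered libraries. The same-numbered WT4 and KO6 had the highest correlation of all pairs (0.26), while WT1 correlated best with KO6 (0.21) and WT6 with KO3 (0.21). Deviations within a group cancel for each gene, so these values cannot decide whether the replicate numbers pair the libraries. The replicate block moved the counts to 904 higher and 1018 lower, with 0 members and 9 pathway genes called, 8 of them shared with the fit without it.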

Other observations

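Genes that restrain retroelements, 19 in all and each tested, held 2 called higher and 2 called lower (21.1%, beside 16.2% of all genes tested), with a median log2 fold change of −0.09. *Dnmt1*, the maintenance DNA methyltransferase, was at 9.26, 9.40 and 9.13 CPM in WT1, WT4 and WT6 and at 14.5, 13.6 and 15.3 CPM in KO3, KO6 and KO7 (0.64, SE 0.11, adjusted p = 0.0164, edgeR). *Samhd1*, which depletes deoxynucleotides and limits reverse transcription, was at 24.8, 22.6 and 25.6 CPM in WT and at 36.7, 32.2 and 30.2 CPM in the KO-labelled libraries (0.44, adjusted p = 0.0424, edgeR). Both genes had no overlap between the groups.

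*Fam208a*, a subunit of the HUSH silencing complex, fell from 17.6, 17.3 and 12.8 CPM to 10.1, 7.47 and 7.54 CPM, by 0.92 on the log2 scale (adjusted p = 0.0217, edgeR). *Uhrf1*, which guides DNMT1 to hemimethylated DNA, was at 2.57, 2.97 and 0.803 CPM in the WT group and at 0.547, 0.676 and 0.599 CPM in KO3, KO6 and KO7, and fell by 1.79 (adjusted p = 0.0460, edgeR). *Trim28* (0.32, adjusted p = 0.127) and *Rnaseh2c* (0.07, adjusted p = 0.794) were not called in edgeR's test, and *Trim28* was called without WT6 (0.44, adjusted p = 0.0207). KO7 was the lowest KO-labelled library in 3 of 19 of these genes (15.8%), where it was lowest in 9 of the 9 interferon-stimulated genes. Each of the 4 calls was lost without KO3 and without KO7. Transcripts of the retroelements themselves were not analysed here.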
